A study of Mus musculus with 30 samples.

Results

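Voltage-gated calcium channels were described here through 10 of their subunit genes, Cacna1a, Cacna1b, Cacna1c, Cacna1d, Cacna1e, Cacna1g, Cacna1h, Cacna2d1, Cacnb3 and Cacnb4. The data were RNA-seq of cells sorted by FACS as interneurons from mouse medial prefrontal cortex (mPFC). The genes were taken by symbol from a table of 23993 genes that holds 26 subunits of these channels, and the other 16 were kept as a comparison list. The set was proposed because Cacna1a was among the largest differences between Sst and Pvalb libraries, so the members were chosen by Sst to Pvalb differences in FPKM, and those values are given below as a description, with no p-value. A channel consists of a pore-forming alpha1 subunit, which sets its voltage range and pharmacology, and of auxiliary beta and alpha2delta subunits, which bring the pore to the membrane and adjust its gating. P/Q-type and N-type channels admit the calcium that triggers transmitter release, L-type channels couple activity to gene transcription, and T-type channels open near rest and support rebound bursts. Transmitter release from Pvalb basket cells is known to depend on P/Q-type channels.

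All mice were C57BL/6, 6 to 12 weeks old, heterozygous for a Cre driver (Sst Cre or Pvalb Cre) crossed with Ai9(RCL-tdTomato) mice. In all groups, controls included, cells were sorted for the tdTomato reporter, which Cre can turn on at any earlier time in a lineage. The 24 libraries analysed came from non-stressed Sst females (7), non-stressed Sst males (7), Sst males after 14 days of chronic unpredictable stress (CUS, 3) and non-stressed Pvalb males (7). In the non-stressed males 2 pairs of libraries differed by less than 10% of the distance between other libraries of their group and were averaged, which left 22 samples, 6 in each control male group. The averaged samples are Sst control male replicate 1 and Pvalb control male replicate 2. A further 6 labelled libraries are not analysed here. The labels do not say whether replicates came from separate animals, so the p-values below measure the spread between these samples, which may be partly technical.

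Expression was given as FPKM, fragment counts divided by transcript length and library size, and differences below are on the log2(FPKM + 1) scale, which understates the change of low genes. The labels were not borne out by all markers. Sst itself had a median of 5.06 FPKM in the Sst controls and 24.9 FPKM in the Pvalb controls, and Pvalb was listed at 0 in 8 of 13 Sst controls and had a median of 2.59 FPKM in the Pvalb controls. Gad1 and Gad2, the enzymes of GABA synthesis, had medians of 0.432 and 0.783 FPKM in the Sst controls, while 12 microglial markers summed to between 2630 and 9473 FPKM in every sample. Pvalb control male replicates 1, 4 and 5 held Xist, the transcript of the silenced X chromosome, at 300.2 to 333 FPKM, against 479 to 644 FPKM in the libraries labelled female and at most 6.64 FPKM in the other libraries labelled male. The Sst males fell into 3 samples with short library titles and 3 with long ones, and all CUS libraries had long titles. Small nucleolar RNAs made up 53.5 to 75.7% of summed FPKM in the long-titled libraries and 1.87 to 8.29% in all others.

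Upstream sequences are shown for Cacnb3 and Cacna1c, the members with the widest Sst to Pvalb difference and with the difference called between the sexes. RefSeq (GRCm38.p6) gave 13 start sites for 7 of the 10 members and none for Cacna1a, Cacna1g and Cacna1h in the table used. Each line holds the 250 bases before a start site, read 5′ to 3′ along the gene, with GC boxes (GGGCGG, or CCGCCC on the other strand) in capitals.
Cacnb3 start 1, chr15:98632078-98632327, plus strand: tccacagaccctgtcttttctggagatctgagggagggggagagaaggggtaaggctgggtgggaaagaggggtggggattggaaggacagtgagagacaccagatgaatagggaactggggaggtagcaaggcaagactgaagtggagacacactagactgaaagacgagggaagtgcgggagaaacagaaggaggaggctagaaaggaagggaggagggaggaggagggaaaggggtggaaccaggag
Cacnb3 start 2, chr15:98634517-98634766, plus strand: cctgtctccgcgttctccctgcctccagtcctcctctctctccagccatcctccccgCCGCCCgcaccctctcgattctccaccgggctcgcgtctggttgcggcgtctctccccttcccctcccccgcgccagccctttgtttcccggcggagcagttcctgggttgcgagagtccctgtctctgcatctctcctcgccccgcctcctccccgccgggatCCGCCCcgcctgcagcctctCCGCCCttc
Cacna1c start 1, chr6:119196410-119196659, minus strand: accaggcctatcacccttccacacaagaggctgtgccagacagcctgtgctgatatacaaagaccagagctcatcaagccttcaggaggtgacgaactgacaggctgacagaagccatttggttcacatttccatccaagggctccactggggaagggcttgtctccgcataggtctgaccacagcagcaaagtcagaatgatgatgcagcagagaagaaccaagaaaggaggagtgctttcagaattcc
Cacna1c start 2, chr6:119108496-119108745, minus strand: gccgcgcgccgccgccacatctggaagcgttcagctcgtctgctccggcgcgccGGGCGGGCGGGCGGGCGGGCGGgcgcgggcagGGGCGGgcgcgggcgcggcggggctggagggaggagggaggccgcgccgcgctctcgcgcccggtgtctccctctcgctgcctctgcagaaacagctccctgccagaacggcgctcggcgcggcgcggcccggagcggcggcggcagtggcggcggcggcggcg
Cacnb3 and Cacna1c each had a start without a GC box (56.0 and 51.6% G and C) and a start with several (70.4 and 82.8% G and C). A further start of Cacna1c, not printed, also had no GC box (chr6:118757975-118758224, 50.4% G and C). The 250-base windows of 6 of the 13 starts held GGGCGG on either strand, among them those of Cacna1b, Cacna1d, Cacna2d1 and Cacnb4, and 1, of Cacna1d, held TATAAA. Over 32851 RefSeq promoter windows, cut to the same 250 bases before the start, 32.7% held GGGCGG and 12.4% TATAAA. These matches describe letters in the windows, and the FPKM values do not separate transcripts by start site.

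The 10 genes covered a range of levels, and all had a mean above 0.4 FPKM, the level at which a gene was called expressed. Cacna1d, the L-type pore that opens at lower voltages than its relatives (chr14:30039941-30491156), was the highest of the 10 in 15 of 22 samples, with means of 9.14 ± 0.374 FPKM (SD, n = 7) in Sst control females, 10.3 ± 3.18 (n = 6) in Sst control males, 7.78 ± 0.923 (n = 3) in CUS males and 12.5 ± 1.19 (n = 6) in Pvalb controls. Cacnb3, a beta subunit, was the highest in 6 samples and Cacna1g in the remaining 1. In the Pvalb controls the means ran from Cacnb3 at 21.2 FPKM through Cacna1d at 12.5 and Cacna1a at 11.02 down to Cacna1g at 0.833, and of 9 neighbouring pairs in that order only Cacna1a above Cacnb4 did not overlap over samples. In the Sst controls Cacna1d at 9.66 FPKM was followed by Cacnb3 at 3.97, Cacnb4 at 2.31, Cacna1a at 2.01 and Cacna2d1 at 1.998, and Cacna1b came last at 0.443. None of the 9 neighbouring pairs there was separated over the 13 samples.

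**Figure D1:**
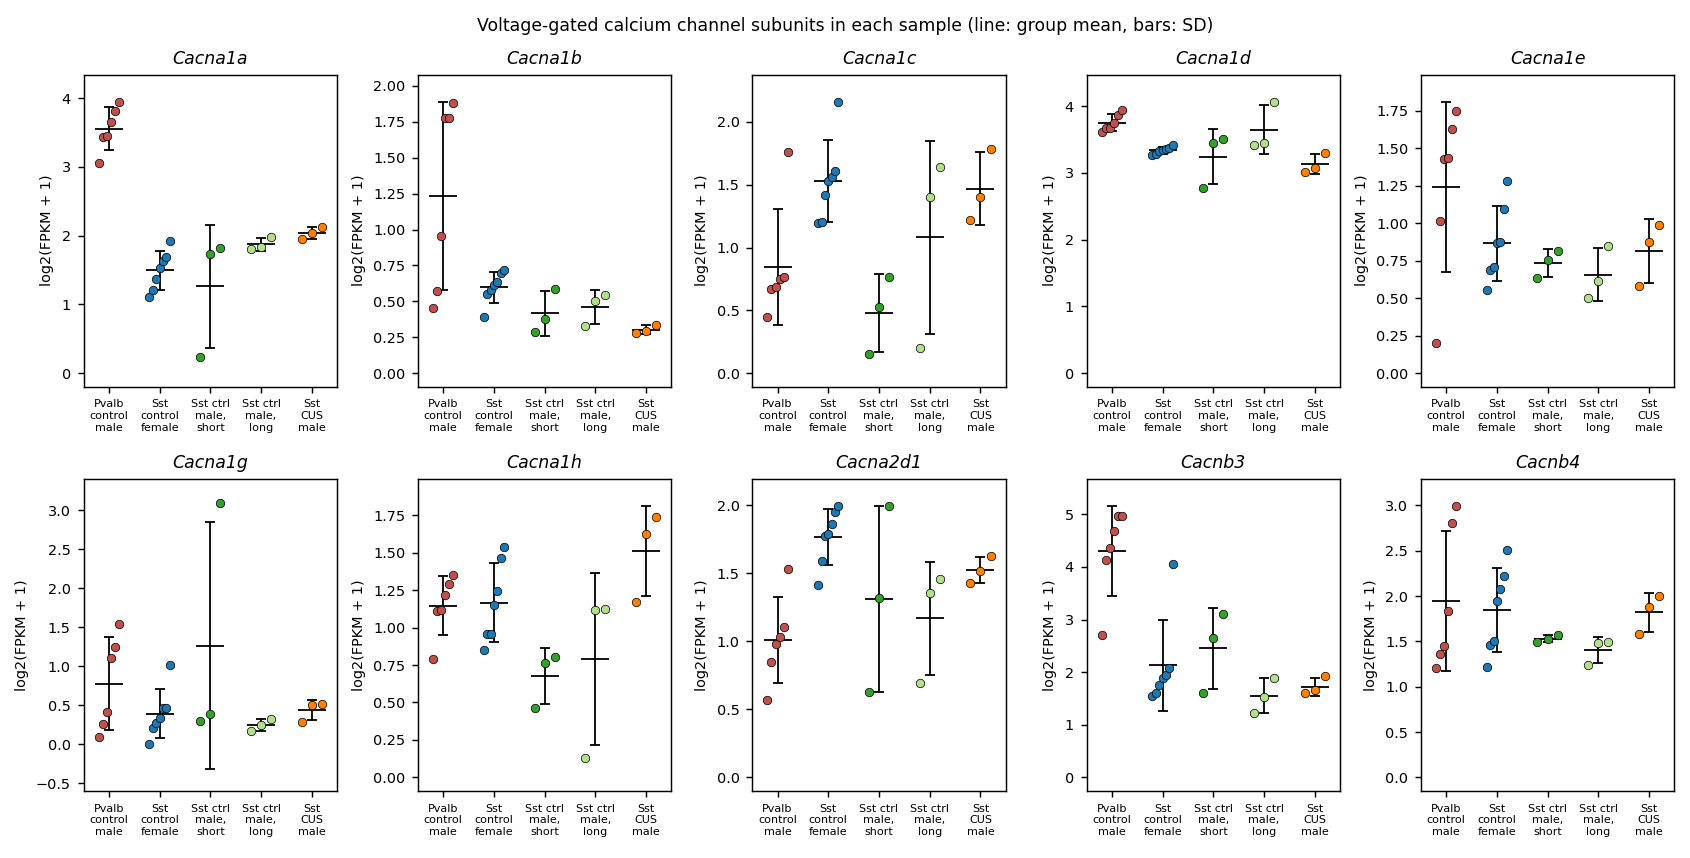
Level of each of the 10 subunits in log2(FPKM + 1), 1 point per sample, in 5 groups (Sst control males split by short and long library titles), with the group mean and SD as line and bars. The 6 Pvalb samples of Cacna1a lie at 7.34 FPKM or above and all Sst samples at 3.35 FPKM or below, while Cacnb3 has a Pvalb sample at 5.52 FPKM and an Sst female at 15.6 FPKM.

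Among the other 16 subunits 10 had a mean above 0.4 FPKM. Several exceeded most of the members. Cacng7, which belongs to a family that acts mainly on AMPA receptors, had a median of 54.8 FPKM over 22 samples (lowest 3.08, highest 135). Cacnb1 (4.67 to 27.8 FPKM) and Cacnb2 (2.45 to 12.6 FPKM), the beta subunits best known from skeletal muscle and heart, and Cacna2d2 (2.03 to 11.04 FPKM) also lay above Cacnb4 or Cacna2d1 in most samples. Cacng8, Cacng4, Cacng3, Cacng2, Cacna2d4 and Cacna2d3 had means between 0.491 and 4.88 FPKM. Cacna1f, Cacna1i, Cacna1s, Cacng1 and Cacng5 were at or below 0.4 FPKM and Cacng6 was listed at 0 in all samples. Bulk values cannot tell fewer cells of a type from less RNA per cell, which holds for every difference given here.

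**Figure D2:**
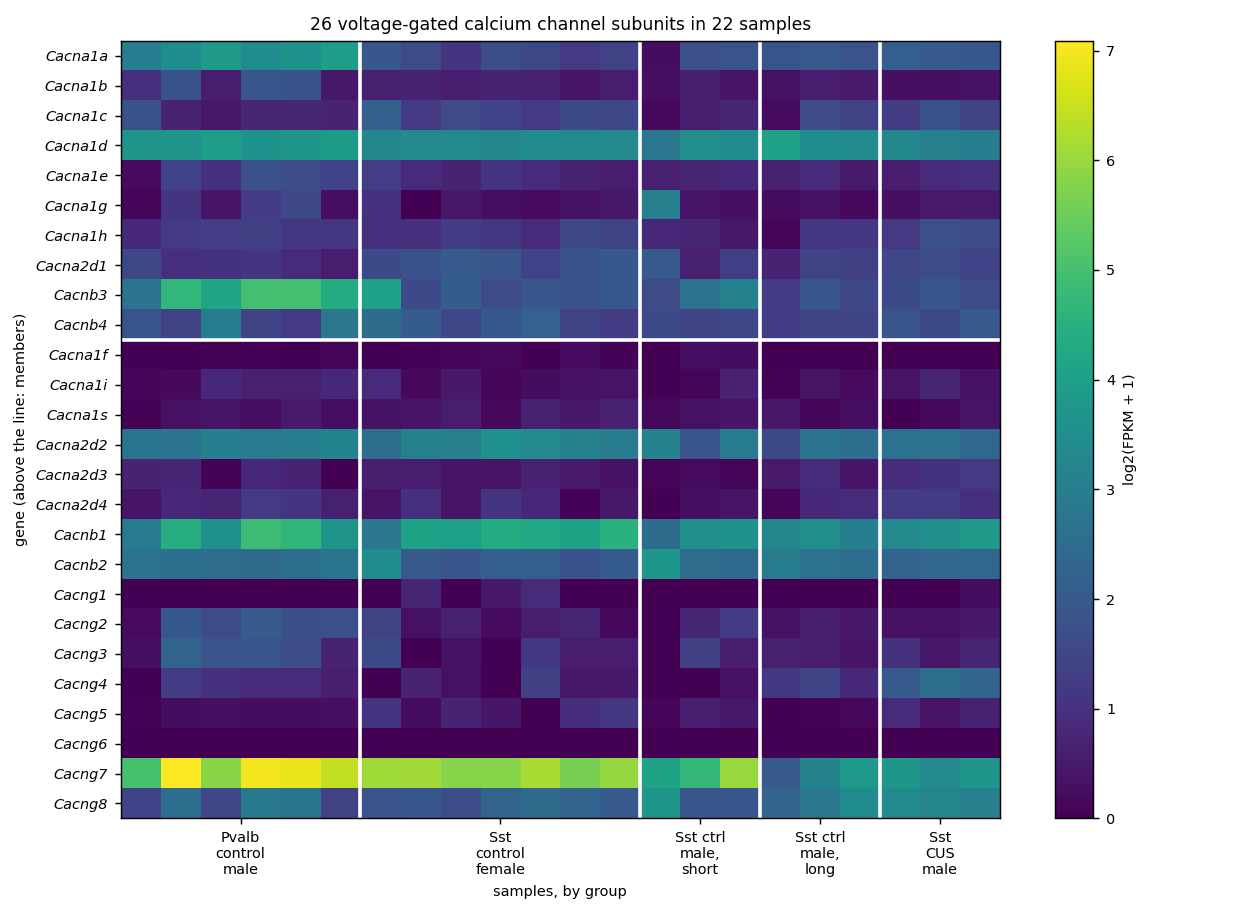
Heat map of log2(FPKM + 1) for 26 subunits (rows, the 10 members above the white line) in 22 samples (columns, ordered by group). Cacng7, Cacnb1, Cacna1d and Cacna2d2 are bright in nearly all columns, and Cacna1a and Cacnb3 are brighter in the Pvalb columns than in most Sst columns.

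Cacna1a encodes the pore of P/Q-type channels (chr8:84338631-84640251). It was lower in the Sst controls than in the Pvalb controls, and these values chose the set. The Pvalb controls had 7.34 FPKM at the lowest, 10.7 at the median and 14.5 at the highest, with a mean of 11.02 ± 2.56 (SD, n = 6). In the 13 Sst controls the lowest was 0.172, the median 2.24 and the highest 2.96 FPKM, with a mean of 2.01 ± 0.779. The groups did not overlap, and the difference was -2.03 on the log2 scale. The 19 differences with 1 sample left out lay between -2.13 and -1.92, and without the 3 Pvalb samples that held Xist the difference was -2.08. Both come from the samples by which Cacna1a was chosen, so they describe its values and are no support for the difference. Scrt1 (-2.03) and Rell2 (-2.02) stood just before and just after Cacna1a among genes called lower in Sst, where Cacna1a was number 23. Among the called genes with separate groups it was number 3, between Slfn9 (-2.09) and Cnih3 (-1.87). Number 1 there, named after its values were seen, was Slc1a2, with means of 0 FPKM in the Sst and 874 FPKM in the Pvalb controls (-9.76). The 6 astrocyte markers summed to 516 to 1803 FPKM in the Sst controls, and the cause of the Slc1a2 values was not tested.

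Cacnb3 (chr15:98628436-98644536), a beta subunit that assembles with P/Q- and N-type pores, had the widest difference of the 10 at -2.23. Its mean was 21.2 ± 9.496 FPKM in the Pvalb controls (lowest 5.52, median 22.1, highest 30.5) and 3.97 ± 3.87 FPKM in the Sst controls (lowest 1.34, median 2.70, highest 15.6). The groups overlapped, because Pvalb control male replicate 2 was at 5.52 FPKM while Sst control female replicate 7 was at 15.6 and Sst control male replicate 4 at 7.60 FPKM. Without the Pvalb samples that held Xist the difference was -1.66.

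The other members lay closer together in the Sst and Pvalb controls. Cacna1b, the N-type pore, had 1.56 ± 1.072 FPKM in the Pvalb and 0.443 ± 0.136 FPKM in the Sst controls, a difference of -0.71. Its high Pvalb values of 2.43 to 2.69 FPKM were those of the 3 samples that held Xist, and without them the difference was -0.14. Cacna1e, the R-type pore, followed the same samples in part, with a difference of -0.45 that became -0.10 without them, and Cacna1d differed by -0.36. Cacnb4, a beta subunit prominent in cerebellum and thalamus, had its highest Pvalb values in replicates 3 and 6 (6.97 and 5.99 FPKM) and moved from -0.27 to -0.87 when the Xist samples were left out. Cacna2d1, the alpha2delta subunit bound by gabapentin, was higher in the 13 Sst controls by 0.51, with 1.998 ± 0.823 FPKM against 1.06 ± 0.470 FPKM, and by 0.30 in the short-titled Sst control males alone.

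Because this contrast chose the members, their calls in it are no test of them and nothing is read from the counts. Across all 14524 genes 7.8% had an adjusted p below 0.05 in limma, as had 3 of the 10 members (Cacna1a, Cacna1b and Cacnb3), and 0.833% had groups that did not overlap, as had 1 member. Among genes that work beside the channels, values are given without a count. The difference was -2.26 for Stac2, -1.87 for Snap25, -1.32 for Stx1a and -1.31 for Cabp1, while Rem1 (1.22) and Rrad (0.68) were higher in Sst. Among the other subunits it was -1.34 for Cacng7, -0.97 for Cacng2 and 0.25 for Cacng8. Of 8 neuron markers the sum ran from 310 to 377 FPKM in 5 Pvalb samples and was 52.1 FPKM in Pvalb control male replicate 2. It was 274 FPKM in Sst control female replicate 7 and 43.7 to 154 FPKM in the other Sst controls. The samples farthest from their group for Cacnb3, Pvalb control male replicate 2 and Sst control female replicate 7, were also the farthest for the neuron sum. Snap25, given above, is 1 of the 8 markers and held 22.4 FPKM of the sum in the first and 152 FPKM in the second. The neuron sum is therefore not separate from the Snap25 value. Cacna1a in Pvalb control male replicate 2 (7.34 FPKM) remained above every Sst sample, and in Sst control female replicate 7 it was 2.79 FPKM. Of 5 excitatory neuron markers the sum was 464 to 529 FPKM in 5 Pvalb samples and 25.3 FPKM in Pvalb control male replicate 2, and in the Sst controls it had a median of 52.2 FPKM (25.2 to 237). The microglial sums had a median of 9082 FPKM (7617 to 9473) in the Pvalb and 4673 FPKM (3288 to 9331) in the Sst controls, and the mural sums 17.5 FPKM (10.5 to 180) and 85.3 FPKM (8.18 to 213). The part of neurons, of either kind, and of the other cell types in these differences was not tested.

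**Figure D3:**
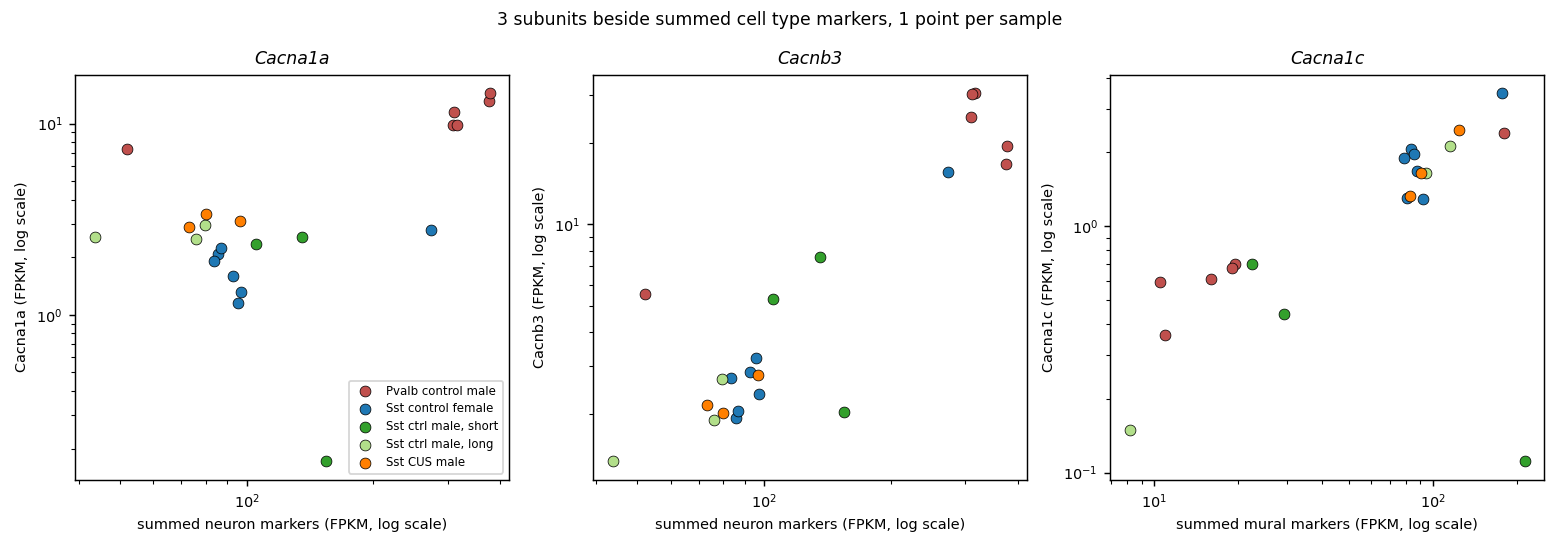
Cacna1a and Cacnb3 against the summed FPKM of 8 neuron markers, and Cacna1c against the summed FPKM of 5 mural cell markers, on log axes with 1 point per sample and colours by group. The Pvalb sample with a neuron sum of 52.1 FPKM has Cacnb3 at 5.52 FPKM and Cacna1a at 7.34 FPKM, and the Sst male with a mural sum of 213 FPKM has Cacna1c at 0.111 FPKM.

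The genes whose levels followed Cacna1a most closely over the 22 samples were D630041G03Rik (Pearson r = 0.912), Ppard (0.907), BC068157 (0.904), Myo1g (0.893) and Camk2b (0.888), among 14566 genes compared. These samples share the split between Pvalb and Sst, so the correlations describe that split. Ppard, a nuclear receptor, had 28.1 ± 4.74 FPKM in the Pvalb and 16.7 ± 2.36 FPKM in the Sst controls, and Camk2b, a subunit of a calcium-dependent kinase, had 12.01 ± 4.43 and 2.67 ± 2.39 FPKM. Among the members Cacnb3 was the nearest to Cacna1a (r = 0.799, number 77 of those genes) and Cacna2d1 the most opposed (r = -0.68).

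The first tested comparison asked how Sst control females differed from Sst control males, and used the 7 females and the 3 short-titled males, since no female library had a long title. Of the 10 members 1 passed the test, Cacna1c, where 3.41% of 14443 genes did. Cacna1c encodes the L-type pore found in neurons and in the smooth muscle of vessels (chr6:118587240-119197384). The females had 1.29 FPKM at the lowest, 1.89 at the median and 3.47 at the highest, and the short-titled males 0.111, 0.440 and 0.704 FPKM. All females lay above all these males, and the means were 1.95 ± 0.738 FPKM (SD, n = 7) and 0.418 ± 0.297 FPKM (n = 3). The difference was 1.04 on the log2 scale (SE 0.257, adjusted p = 0.0490 in limma, Benjamini-Hochberg over all genes tested).

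The Cacna1c call stood at the edge of the threshold. It was higher in females in all 22 alternatives and passed in 5 of them, with limma adjusted p from 0.0110 to 0.278. Leaving out any of female replicates 1 to 6 (adjusted p 0.0827 to 0.0978 in limma), male replicate 1 (0.0801) or male replicate 3 (0.111) ended the call. Against the long-titled males, which had 0.150, 1.65 and 2.11 FPKM and overlapped the females, the difference was 0.45 (adjusted p = 0.274 in limma), and against all 6 males it was 0.75 (adjusted p = 0.0790). Markers of mural cells, which wrap the vessels, are set beside it here. Their sum over 5 genes was 78.5 to 177 FPKM in the females, 22.4 and 29.3 FPKM in male replicates 4 and 3, and 213 FPKM in male replicate 1, whose Cacna1c was the lowest of the 3. Female replicate 7 had the highest mural sum and Cacna1c of the females (177 and 3.47 FPKM). Among female replicates 1 to 6, replicate 1 had the highest mural sum and the lowest Cacna1c (92.1 and 1.29 FPKM). Of the 5 mural markers 1 and of the 5 endothelial markers 2 were called higher in females, none of them listed at 0 in all samples of a group, and 5 of 12 microglial markers were called lower and 1 higher. The part of these cells in the Cacna1c difference was not tested.

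No other pore passed the test between the sexes. Cacna1h, a T-type pore, also had groups that did not overlap, 0.803 to 1.91 FPKM in the females and 0.381, 0.698 and 0.748 FPKM in the short-titled males, with a difference of 0.49 (SE 0.226, adjusted p = 0.208 in limma). Over all genes tested 9.73% had groups that did not overlap. Cacna1g, the other T-type pore, showed a difference of -0.87 (SE 0.505, adjusted p = 0.305 in limma) that rested on male replicate 1 at 7.52 FPKM. The other short-titled males had 0.233 and 0.313 FPKM and the females at most 1.03 FPKM, and both libraries behind replicate 1 gave the value (7.54 and 7.51 FPKM). The same sample had the lowest Cacna1a of the series, 0.172 FPKM against 2.34 and 2.54 FPKM in the other short-titled males. The sex difference of Cacna1a was 0.23 with it and -0.28 without it, and neither passed the test.

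Cacna1d had 9.14 ± 0.374 FPKM in the females and 8.73 ± 2.52 FPKM in the short-titled males (difference 0.10, 95% interval -0.32 to 0.51). Cacna1b and Cacna1e differed by 0.18 and 0.13. Of the auxiliary subunits, Cacnb3 differed by -0.33 (95% interval -1.45 to 0.79), Cacnb4 by 0.32 and Cacna2d1 by 0.46 (95% interval -0.17 to 1.09). Cacna2d1 had 1.67 to 2.98 FPKM in the females and 0.543, 1.49 and 2.98 FPKM in the short-titled males. Against the long-titled males, which had 0.614, 1.56 and 1.75 FPKM, it was higher in females by 0.60 (adjusted p = 0.0464 in limma), in a comparison where 41.5% of all genes passed and where sex and the kind of title cannot be told apart. Against all 6 males 0 of the 10 members passed in limma, where 11.7% of genes did. An unadjusted p below 0.05 was held by 2 members, Cacna1c and Cacna2d1, and by 4441 of 14498 genes.

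**Figure D4:**
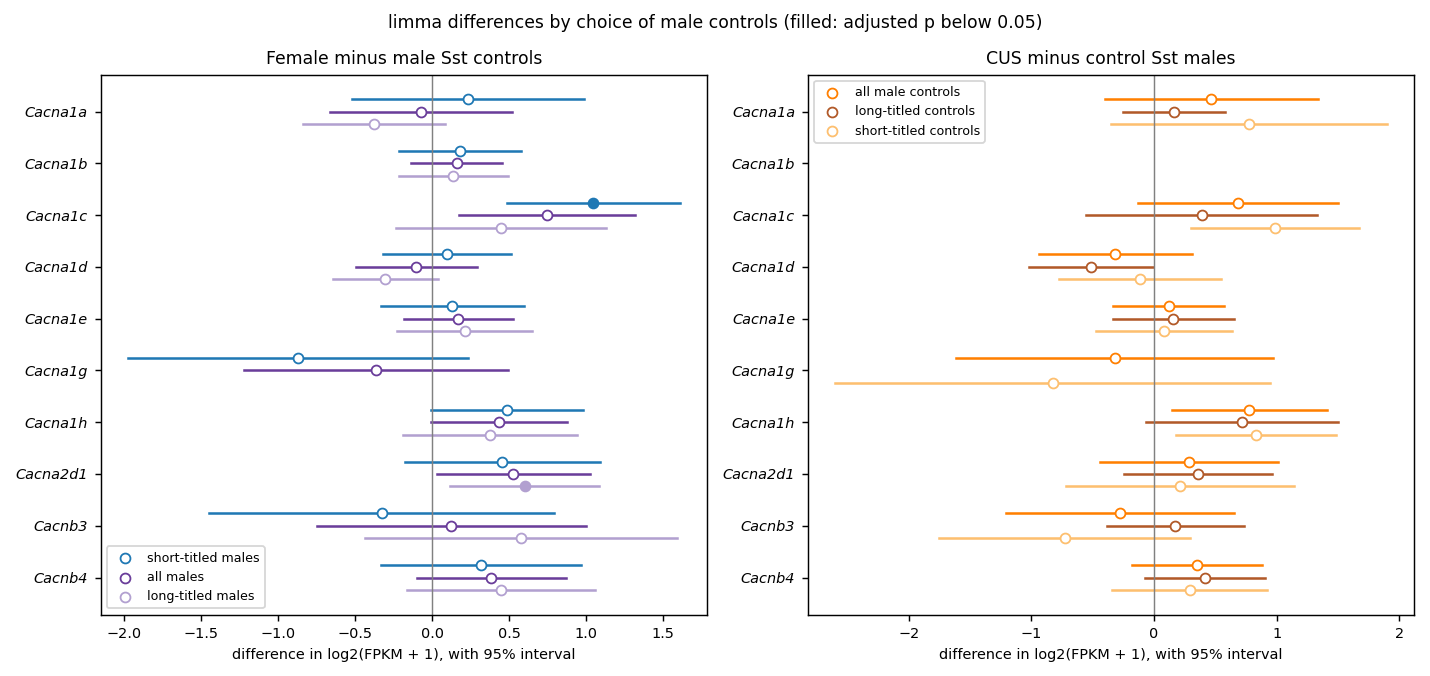
Differences in log2(FPKM + 1) with 95% intervals from limma for each member, female minus male Sst controls (left) and CUS minus control Sst males (right), for 3 choices of male controls in each panel. Filled points passed an adjusted p below 0.05, which only Cacna1c against the short-titled males and Cacna2d1 against the long-titled males did.

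The 2 comparison lists were given the same test between the sexes. Of the other 16 subunits 9 were tested and 0 passed in limma. An unadjusted p below 0.05 was held by 2 of them, Cacng7 (1.01) and Cacnb1 (0.80), and by 3515 of all 14443 genes. Of the 16 partners and regulators 14 were tested and 3 passed, 2 lower in females and 1 higher. Gem, a small GTPase that inhibits calcium channels, had 7.16 ± 2.17 FPKM in the females and 22.9 ± 8.13 FPKM in the short-titled males (-1.53, adjusted p = 0.0216 in limma). It reversed against the long-titled males (0.73, adjusted p = 0.0348 in limma), and leaving out female replicate 2 or 5 ended the call (adjusted p 0.0540 and 0.0532). Calm2, a calmodulin gene, was at -1.03 (adjusted p = 0.0427 in limma) and Rem1, a small GTPase that holds back calcium currents, at 1.44 (adjusted p = 0.0468), and they passed in 9 and 6 of 22 alternatives. The Calm2 call ended when any of female replicates 1 to 6 or male replicates 1 and 3 was left out, and the Rem1 call when any sample but female replicate 7 was left out (highest adjusted p 0.111 and 0.107 in limma). The median difference was 0.21 over the members, 0.27 over the other subunits, 0.08 over the partners and 0.05 over all genes tested.

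The second tested comparison asked how CUS changed the subunits in Sst males, with 3 CUS samples and 6 non-stressed male samples. Of the 9 members tested 0 passed in limma, and 1, Cacna1h, had an unadjusted p below 0.05. Over all 14319 genes 0.00698% were called, which is 1 gene, and 1070 had an unadjusted p below 0.05 in limma. Cacna1b lay below the filter of 0.4 FPKM in these samples and was not tested; it had 0.215, 0.225 and 0.264 FPKM after CUS and 0.218 to 0.501 FPKM in the controls.

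Cacna1h had 1.25, 2.08 and 2.33 FPKM after CUS and, in the controls, 0.0924 at the lowest, 0.723 at the median and 1.18 at the highest. All CUS samples lay above all controls, and the difference was 0.78 (SE 0.286, unadjusted p = 0.0208, adjusted p = 0.641 in limma). It was 0.72 against the long-titled controls alone and 0.83 against the short-titled ones. Of the long-titled controls, male replicate 5 had 0.0924 FPKM and replicates 6 and 7 had 1.18 and 1.17 FPKM. The difference of 0.72 therefore rested in good part on replicate 5. Cacnb4 also had separate groups, with 1.99, 2.67 and 3.004 FPKM after CUS and 1.36 to 1.97 FPKM in the controls (difference 0.35, adjusted p = 0.648 in limma). Of all genes tested 7.1% had groups that did not overlap.

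The remaining pores and auxiliary subunits gave wide intervals after CUS. Cacna1a was 2.86, 3.10 and 3.35 FPKM after CUS and 0.172 to 2.96 FPKM in the controls, where all but male replicate 1 lay between 2.34 and 2.96, and the difference was 0.47 (95% interval -0.40 to 1.34). Cacna1c was 1.33, 1.64 and 2.45 FPKM after CUS and 0.111 to 2.11 FPKM in the controls (0.69, 95% interval -0.13 to 1.504). Cacna1d was 7.07, 7.46 and 8.82 FPKM after CUS and 5.84 to 15.8 FPKM in the controls, with a difference of -0.32 against all controls. Against the long-titled ones the difference was -0.52 (adjusted p = 0.647 in limma), without overlap, as for 18.7% of all genes there. Those controls had 9.68, 9.92 and 15.8 FPKM, and the highest value was that of male replicate 5. Cacna1e, Cacna1g, Cacna2d1 and Cacnb3 differed by 0.12, -0.32, 0.28 and -0.28.

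The share of all genes called after CUS changed with the kind of control. Against the 3 long-titled controls 0.00705% of genes were called, and against the 3 short-titled controls 16.1% were. Of the members 0 of 8 tested passed in limma against the first and 0 of 9 against the second. Against the first, 1 member (Cacna1d) and 956 of 14186 genes had an unadjusted p below 0.05 in limma. Against the second, 2 members (Cacna1c at 0.99 and Cacna1h) and 4788 of 14326 genes did. CUS and the kind of title cannot be told apart against the short-titled controls. Endothelial markers summed to 113 to 180 FPKM after CUS and 15.7 to 99.4 FPKM in the control males, mural markers to 82.7 to 124 FPKM and 8.18 to 213 FPKM, and microglial markers to 2630 to 3054 FPKM and 3288 to 9331 FPKM. The 6 oligodendrocyte markers summed to 1600 to 1967 FPKM after CUS and 391 to 1422 FPKM in the control males, without overlap, with a median log2 difference of 1.15 and 0 of 6 called in limma. The part of these cell types in the subunit values was not tested.

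In the comparison lists CUS gave 0 calls in limma. At an unadjusted p below 0.05 were 3 of 10 tested other subunits, 0 of 14 tested partners and 1070 of all 14319 genes. Cacng4, of the same family as Cacng7, had the widest difference, 3.99 ± 0.977 FPKM after CUS and 0.663 ± 0.719 FPKM in the controls (1.68, SE 0.373, unadjusted p = 0.0010, adjusted p = 0.641 in limma). It was named after its values were seen. Its short-titled controls had 0.0794 ± 0.138 FPKM and its long-titled controls 1.25 ± 0.501 FPKM (n = 3 each), so part of the distance lay between the kinds of title.

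Since all CUS libraries and none of the female ones had long titles, the 3 long-titled and 3 short-titled Sst control males were also compared. Of the 9 members tested 0 passed in limma, where 4.11% of 14230 genes were called. An unadjusted p below 0.05 was found for 0 of the 9 members and for 3354 of all genes. The largest member differences were -1.01 for Cacna1g, which rested on male replicate 1, and -0.90 for Cacnb3 (5.29, 7.60 and 2.05 FPKM in the short-titled against 1.34, 1.90 and 2.70 FPKM in the long-titled samples, adjusted p = 0.294 in limma). Without male replicate 1 the Cacnb3 difference was -1.33 and passed (adjusted p = 0.0413 in limma). Cacna1h had 1.17 and 1.18 FPKM in long-titled replicates 7 and 6 and 0.0924 FPKM in long-titled replicate 5, which also held the lowest mural sum (8.18 FPKM) and a Cacna1c of 0.150 FPKM. Of the partners 2 of 14 passed, Gem (-2.26, adjusted p = 0.0240 in limma) and Snap25, a protein of the release machinery (-2.17, adjusted p = 0.0105 in limma), and 0 of 8 tested other subunits did (2 at an unadjusted p below 0.05). Leaving out long-titled replicate 6 or 7 ended both calls (highest adjusted p 0.115 for Gem and 0.0796 for Snap25 in limma), and leaving out replicate 4 or 5 ended that of Gem (adjusted p 0.0830 and 0.0752).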

How the data were processed

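The authors deposited 1 table of FPKM for 23993 gene symbols in 24 libraries. The submitters' processing notes name TopHat2, Cufflinks, Cuffdiff and mm10, and the methods name TopHat2 with another build, HISAT2 and StringTie. Which of them gave these values is not stated. The methods mention batch removal and dropped samples, but not for this table. Low values did not fall on whole multiples of a read (4.53 to 13.1% within 0.02 on the log2 scale of the step expected from another library), so read depth is unknown and no counts were used.

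The 10 members and the comparison and marker lists were chosen with earlier results of these data known. Members and lists were named by symbol, the other subunits where their mean passed 0.4 FPKM or their adjusted p was below 0.05, partners where their adjusted p was, and Cacna1a's 5 nearest genes by Pearson correlation; genes outside this are given as named after their values were seen or as neighbours in an order. Near-identical libraries (SD of log2 differences under 10% of the next closest pair's, over genes above 5 FPKM) were averaged. limma 3.58.1 in R 4.3.3 (trend and robust, two-sided) was fitted to log2(FPKM + 1) of all genes with a mean above 0.4 FPKM, with Benjamini-Hochberg adjustment and a threshold of 0.05, and was tested on simulated data. Alternatives changed the pseudocount (0.1, 5), filter (none, 1 FPKM), scaling, averaging, robust setting, choice of controls, pairing and each sample in turn. Gene positions and promoters came from RefSeq (GRCm38.p6), the assembly behind mm10, and figures from matplotlib 3.10.9. Comparisons that need the 6 other labelled libraries were not made. The count over the partner list between Sst and Pvalb controls is not reported here.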

Additional observations from a re-analysis of the deposited data

Results flagged for a closer look

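Within the 3 control groups of 6 or 7 samples, the highest or lowest sample of a member stood apart by Dixon's 95% limit in 6 of 30 groups tested. Chance gives about 1 in 20 for independent groups of normal values. The 10 members share the same samples, so the groups are not independent and the count is no test. Sst control male replicate 1, the averaged pair, was flagged for both Cacna1a (0.172 FPKM, the others 2.34 to 2.96) and Cacna1g (7.52 FPKM, the others 0.127 to 0.313). Pvalb control male replicate 2, the other averaged pair, was flagged for Cacnb3 (5.52 FPKM, the others 16.6 to 30.5) and Cacna1c (2.39 FPKM, the others 0.363 to 0.701). Its mural markers summed to 180 FPKM, against 10.5 to 19.5 FPKM in the other Pvalb samples. Sst control female replicate 7 was flagged for Cacnb3 (15.6 FPKM, the others 1.94 to 3.23), with neuron markers at 274 FPKM against 83.6 to 97.0 FPKM in the other females. Sst control male replicate 5 was flagged for Cacnb4 (1.36 FPKM, the others 1.79 to 1.97).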

How the results depend on the processing

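Read depth is unknown, groups hold 3 to 13 samples, and markers of several cell types were present in every sample, which limits what these values show. The number of genes called moved most with the samples used. For the sexes (493 genes) it was 2549 with near-identical libraries kept apart, 1699 with all males, 6032 with long-titled males, and 100 to 1787 with a sample left out. With each library scaled to a common median 222 genes were higher and 326 lower in females, against 253 and 240. For Sst against Pvalb (1133 genes) it was 13 with short-titled Sst males, 3638 with females, 14 without the Pvalb samples that held Xist, and 389 to 2130 with a sample left out. For CUS (1 gene) it was 3 without a filter, 3 with libraries kept apart, 2309 with short-titled controls, 6 with controls of both sexes, and 1 to 3 with a sample left out. For the kinds of title (585 genes) it was 381 without a filter, 1110 with quantile normalization, 1769 with libraries kept apart, and 54 to 1962 with a sample left out.

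Same-numbered samples did not deviate together: correlations of their deviations from the group means were -0.0402 to -0.0151 for 3 pairs between the sexes and -0.0241 to 0.0579 for 6 pairs of Sst females and Pvalb males, where 0 and 1 pairs correlated best within their number. With the replicate number as a block, 11 genes were called between the sexes (24 on the same samples without the block, an alternative chosen after seeing the data) and 3983 between Sst females and Pvalb males. No paired analysis was possible because, for CUS and the kinds of title, the long titles carry no replicate numbers, and the numbers given to those libraries only name them.

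Among members no CUS alternative gave a call. Uncalled differences that changed sign between the sexes were Cacna1a (-0.18 with quantile normalization, -0.072 with all males, -0.38 with long-titled males), Cacna1b (-0.19) and Cacna1e (-0.23) with quantile normalization, Cacna1d (-0.10 with all males, -0.30 with long-titled males) and Cacnb3 (0.12 and 0.58). With a sample left out Cacna1a ranged from -0.28 to 0.51 and Cacna1d from -0.14 to 0.23. Gem turned to 0.73 with long-titled males. For CUS, Cacna1e was -0.13 with quantile normalization, Cacna2d1 -0.00061 with controls of both sexes and Cacnb3 0.17 with long-titled controls. For the kinds of title Cacna1h was -0.019 with a pseudocount of 0.1 and -0.076 with quantile normalization, and with a sample left out it ranged from -0.054 to 0.44 and Cacna2d1 from -0.49 to 0.20. The causes were not tested.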
